A study of Mus musculus with 5 samples.

Results

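Zscan4a, Zscan4b and Zscan4c are copies of the mouse Zscan4 gene, and every row of the deposited table under these symbols was taken: 3 genes of 10855 gene symbols, with 12 exon bins of 243771. They were chosen from the difference between the groups, which an earlier reading of these data had shown, so that difference, in the copies and in their bins, is given here as a description and is no test of them. An exon bin is an exon, or a part of one where transcripts differ, in which reads were counted. The libraries were made from polyadenylated RNA of mouse embryonic stem cells, cultured pluripotent cells of the early embryo. There were 3 libraries of wildtype cells (called wildtype 1 to 3) and 2 of cells labelled -45del (called deleted 1 and 2), in which the -45 super-enhancer, a dense cluster of enhancers of the pluripotency gene Nanog, was deleted. The labels give both groups the same protocol, 6 days in ethanol as vehicle or in 4-hydroxytamoxifen. They do not say which library had which agent, how the deletion was made, or whether libraries of a group came from separate cultures or clones.

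Zscan4 genes encode nuclear proteins with a SCAN domain, which binds other SCAN proteins, and with C-terminal zinc fingers, which bind DNA. They are switched on in the 2-cell embryo, when the mouse genome is first transcribed, and are silent in most cultured stem cells. A small, changing fraction of embryonic stem cells expresses them in bursts, together with other genes of the 2-cell embryo, and the proteins are known for a part in telomere lengthening and genome stability. In RNA from whole cultures, more cells that express the genes and more RNA in each such cell cannot be told apart.

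The copies lie in 1 cluster on chromosome 7, Zscan4a and Zscan4b on the minus strand and Zscan4c on the plus strand in GENCODE vM21 (build GRCm38). Zscan4b and Zscan4c are annotated as coding, and Zscan4a as an unprocessed pseudogene, a duplicate that is not expected to give a full protein. The annotated transcripts are nearly the same: Zscan4a and Zscan4c were identical at 98.0% of 2275 aligned bases, Zscan4b and Zscan4c at 97.2% of 1779, and Zscan4a and Zscan4b at 97.1% of 1779. The bases just before the start of Zscan4b and Zscan4c, the part of each promoter where transcription is set up, are shown because these copies stood higher together. They come from RefSeq (GRCm38.p6), at chr7:10905051-10905300 on the minus strand for Zscan4b and chr7:11005495-11005744 on the plus strand for Zscan4c. No such entry was used for Zscan4a. Capitals mark TATAAA and CCAAT, which are common motifs of promoters.
Zscan4b: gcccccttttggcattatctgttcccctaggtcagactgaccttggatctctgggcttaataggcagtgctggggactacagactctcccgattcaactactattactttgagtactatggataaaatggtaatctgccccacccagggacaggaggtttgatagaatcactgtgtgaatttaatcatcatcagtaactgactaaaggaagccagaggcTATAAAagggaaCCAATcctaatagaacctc
Zscan4c: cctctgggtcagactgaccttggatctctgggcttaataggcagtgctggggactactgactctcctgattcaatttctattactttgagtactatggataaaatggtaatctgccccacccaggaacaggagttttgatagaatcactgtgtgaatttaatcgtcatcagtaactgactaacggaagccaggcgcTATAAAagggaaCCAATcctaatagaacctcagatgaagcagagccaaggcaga

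These upstream stretches matched at 215 of 227 aligned bases (94.7%), with the annotated starts shifted against each other. In Zscan4b TATAAA ends 26 bases before the annotated start, and in Zscan4c 49 bases before it. The same pair of motifs, which do not overlap each other, was in the 250 bases before the starts of Zscan4d and Zscan4f, other copies of the cluster that have no symbol row in the table. Of 32851 promoter stretches of this length, 12.4% held TATAAA and 33.8% held CCAAT on either strand. Also searched on both strands were GATTNAATC, a sequence of the kind bound by the 2-cell factor Dux (in 0.247% of all stretches), TGCACAC, a motif reported for the Zscan4 protein itself (3.67%), and ATTTGCAT, the octamer of POU factors (1.60%). These letters were not in any of the 4 Zscan4 stretches.

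Totals of bin counts were 93574214 to 213042064 per library, and the highest total was that of wildtype 3, whose counts across genes differed more from wildtype 1 and 2 than those differed from each other. Levels are given in counts-per-million (CPM) of the library total after edgeR's TMM scaling. One count was worth 0.00463 to 0.0107 CPM. Of 16259 tested genes, 39.7% passed an edgeR adjusted p under 0.05, and of 3591 tested gene symbols 19.0% passed as higher and 13.1% as lower in the deleted cells. None of the 16 pluripotency markers listed for the cell type had a symbol row, so the labelled cell type was not checked against them. Nanog was not analysed here for the same reason, and the labels were not checked against the targeted locus. Gene symbols held only 0.328% to 0.375% of the counts of each library, so shares among symbols are not shares of all expressed genes. The other counts lie under 13683 assembly IDs without gene names, and reads of a copy may be divided with such an ID.

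Zscan4c, the copy with the most counts, had 199, 201 and 322 counts in wildtype 1, 2 and 3, against 881 and 922 in deleted 1 and 2. At 1.60, 1.76 and 1.49 CPM in wildtype and 9.44 and 9.31 CPM in deleted libraries, its groups were far apart. Its lowest deleted library stood 5.29-fold above the highest wildtype one. Means were 1.62 ± 0.135 CPM (SD, n = 3) and 9.37 ± 0.0948 CPM (SD, n = 2), and the fitted difference, deleted minus wildtype, was 2.54 ± 0.10 (SE) on the log2 scale, or 5.83-fold.

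Zscan4b had 67, 56 and 124 counts in wildtype 1, 2 and 3, against 232 and 290 in deleted 1 and 2. Its level was 0.539, 0.490 and 0.574 CPM in wildtype and 2.49 and 2.93 CPM in deleted libraries. The groups did not overlap, and the deleted libraries differed more from each other than for Zscan4c. Means were 0.534 ± 0.0421 CPM (SD, n = 3) and 2.71 ± 0.312 CPM (SD, n = 2), which differed by 2.33 ± 0.14 (SE) on the log2 scale, or 5.02-fold.

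Zscan4a, the annotated pseudogene, had 48, 47 and 58 counts in wildtype 1, 2 and 3, against 182 and 219 in deleted 1 and 2. Its level was 0.386, 0.411 and 0.268 CPM in wildtype, lowest in wildtype 3, and 1.95 and 2.21 CPM in deleted libraries. Means were 0.355 ± 0.0762 CPM (SD, n = 3) and 2.08 ± 0.184 CPM (SD, n = 2), with no overlap. The log2 fold change was 2.59 ± 0.19 (SE), or 6.03-fold.

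All 3 copies passed the filter on low counts, which asks for 0.0871 CPM in at least 2 libraries, in the wildtype libraries as well as in the deleted ones. Because reads can fall to the wrong copy, the 3 copies were also summed. This leaves out the other annotated Zscan4 copies of the cluster, none of which has a symbol row. Reads shared with those copies are not settled by summing. The sum held 314, 304 and 504 counts in wildtype 1, 2 and 3, against 1295 and 1431 in deleted 1 and 2. It stood at 2.52, 2.66 and 2.33 CPM in wildtype and 13.9 and 14.4 CPM in deleted libraries. This gave a log2 fold change of 2.50 ± 0.09 (SE), or 5.67-fold. Ordered by fold change among the tested symbols, Zscan4a was at place 40, Zscan4c at 42 and Zscan4b at 54. Every deleted library lay above every wildtype one for each copy. The same held for 32.8% of tested symbols, and nothing is read from this, since the copies were chosen by the same contrast.

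**Figure D1:**
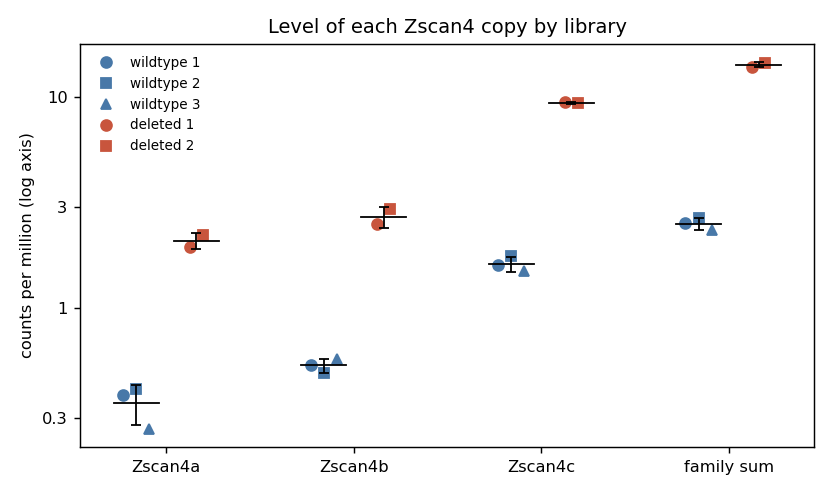
CPM (log axis) of each Zscan4 copy and of their sum, for 3 wildtype (blue) and 2 deleted (red) libraries; the line is the mean and the bar the SD. The family sum lies at 2.33 to 2.66 CPM in wildtype and at 13.9 to 14.4 CPM in deleted libraries, and no copy overlaps between groups.

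The spread within a group was close to counting error for the sum. Its coefficient of variation was 6.58% over the wildtype libraries, where the counts alone give 5.31%, and 2.83% over the deleted libraries, where they give 2.71%. Zscan4a varied most in wildtype, by 21.5% against 14.1% from counting. For Zscan4b in deleted libraries it was 11.5% against 6.23%. For Zscan4c in deleted libraries it was below the 3.33% that counting gives, so the small SD over these 2 libraries understates the error.

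Per kilobase of annotated exon, Zscan4c was the highest copy, Zscan4b the next and Zscan4a the lowest in each of the 5 libraries. In wildtype cells Zscan4c stood at 0.710 ± 0.0594, Zscan4b at 0.296 ± 0.0233 and Zscan4a at 0.156 ± 0.0334 CPM per kilobase (SD, n = 3). In deleted 1 and 2 Zscan4c stood at 4.15 and 4.09, Zscan4b at 1.38 and 1.62 and Zscan4a at 0.856 and 0.970 CPM per kilobase. Neighbours in this order did not overlap between libraries of a group. Among the tested symbols, Zscan4c in wildtype had a higher mean CPM, not scaled by length, than 83.8% of symbols, Zscan4b than 56.3% and Zscan4a than 45.7%. Since most counts lie under assembly IDs, these are not ranks among all expressed genes.

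The proportions of the copies overlapped between the groups. Zscan4c made up 63.4%, 66.1% and 63.9% of the summed counts in wildtype 1, 2 and 3, against 68.0% and 64.4% in deleted 1 and 2. Zscan4b held 21.3%, 18.4% and 24.6% in wildtype and 17.9% and 20.3% in deleted libraries, and Zscan4a 15.3%, 15.5% and 11.5% against 14.1% and 15.3%. The difference between group means, deleted minus wildtype, was 1.77 percentage points for Zscan4c, −2.36 for Zscan4b and 0.594 for Zscan4a. Leaving out 1 library at a time moved these to between −0.03 (without deleted 1) and 3.57 (without deleted 2) for Zscan4c, between −3.88 (without wildtype 2) and −0.789 (without wildtype 3) for Zscan4b, and between −0.69 (without wildtype 3) and 1.28 (without wildtype 2) for Zscan4a. The differences are within or near the SDs, which were 1.46 to 3.09 points in wildtype and 0.884 to 2.55 points in deleted libraries. The ratio of Zscan4c to Zscan4a counts was 4.66 ± 0.777 in wildtype (SD, n = 3) and 4.53 ± 0.446 in deleted cells (SD, n = 2), and that of Zscan4c to Zscan4b was 3.05 ± 0.501 and 3.49 ± 0.437.

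**Figure D2:**
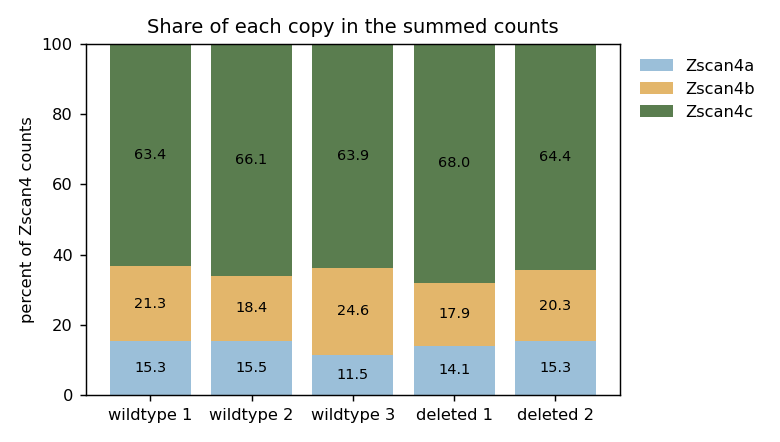
Percent of the summed Zscan4 counts that each copy holds, per library. Zscan4c holds 63.4% to 68.0%, Zscan4b 17.9% to 24.6% and Zscan4a 11.5% to 15.5%, with wildtype and deleted libraries overlapping.

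Each copy has 4 exon bins and 4 annotated exons: a short first exon, exon 2 of 472 bases, exon 3 of 160 bases and a long last exon that is 1540 bases in Zscan4a, 1040 in Zscan4b and 1537 in Zscan4c. The table gives no bin positions. Bins were matched to exons in genomic order, since for 64 of 69 other minus-strand symbols with at least 4 bins, as many bins as annotated exon parts and at least 200 counts in all, the counts followed the exon lengths better in that order than in reverse. Bin 1 of Zscan4a and Zscan4b is then their last exon, and bin 1 of Zscan4c its first. In the last exon Zscan4c had 113, 97 and 190 counts in wildtype and 504 and 500 in deleted libraries. Zscan4a had 33, 30 and 43 against 111 and 128 there, and Zscan4b 31, 21 and 56 against 120 and 111.

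The last exon's log2 fold change was 2.56 ± 0.12 (SE) in Zscan4c, 2.35 ± 0.20 in Zscan4b and 2.38 ± 0.20 in Zscan4a. In the first exon, the bin nearest the start, counts were few: 21, 15 and 10 in wildtype and 45 and 64 in deleted libraries for Zscan4c, 3, 7 and 3 against 9 and 20 for Zscan4b, and 7, 3 and 4 against 14 and 15 for Zscan4a. Fold changes there were 2.40 ± 0.41, 2.33 ± 0.58 and 2.24 ± 0.50 on the log2 scale (SE). The difference was thus measured at both ends of each copy.

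In the third exon Zscan4c had 26, 25 and 42 counts in wildtype and 123 and 112 in deleted libraries, a log2 fold change of 2.56 ± 0.20 (SE). Zscan4b had 8, 8 and 21 against 22 and 43 (2.06 ± 0.35), the smallest difference of the 12 bins, and Zscan4a 2, 4 and 6 against 11 and 18 (2.47 ± 0.49). In the second exon Zscan4c had 39, 64 and 80 counts in wildtype and 209 and 246 in deleted libraries (2.53 ± 0.20), and Zscan4b 25, 20 and 44 against 81 and 116 (2.38 ± 0.21). The second exon of Zscan4a had 6, 10 and 5 against 46 and 58, the largest difference of the 12 bins at 3.48 ± 0.38.

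**Figure D3:**
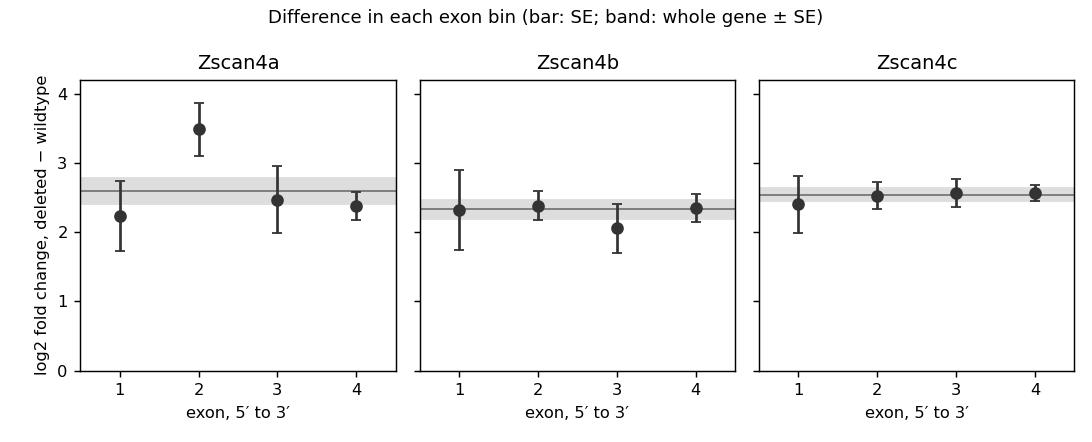
Log2 fold change, deleted minus wildtype, of each exon bin from the first to the last exon, with SE bars; the line and band are the whole gene and its SE. Bins lie at 2.06 to 2.56 apart from the second exon of Zscan4a, at 3.48.

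All 12 bins passed the filter on low counts. Higher values in the deleted cells at an edgeR adjusted p under 0.05 were found for 9.29% of all 151650 fitted bins and 6.75% of the 11360 under gene symbols, and every deleted library lay above every wildtype one in 24.2% of the latter. The 12 Zscan4 bins met both conditions, which restates how the copies were chosen, so nothing is read from it. The median over the 12 bins was 2.39 on the log2 scale. Expressed as shares of a copy's counts, the last exon held 54.7% ± 5.67 of Zscan4c in wildtype (SD, n = 3) and 55.7% ± 2.11 in deleted cells (SD, n = 2). It held 43.0% ± 4.78 against 45.0% ± 9.51 of Zscan4b and 68.9% ± 5.16 against 59.7% ± 1.80 of Zscan4a. The second exon of Zscan4a held 12.5%, 21.3% and 8.62% of its counts in the wildtype libraries, against 25.3% and 26.5% in the deleted ones, without overlap. In a fit of bin use over all genes, 0.362% of 149501 bins passed an edgeR adjusted p under 0.05, and none of the 12 Zscan4 bins did. The shift seen in exon 2 of Zscan4a thus did not pass the test at these counts.

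How far a read can be placed on 1 copy differs along the transcripts, which touches every value per copy. Of all 50-base words of the annotated Zscan4a transcript, 36.4% occurred in no transcript of another GENCODE gene, against 9.65% for Zscan4b and 14.5% for Zscan4c. With 100-base words the shares were 60.9%, 21.3% and 27.2%. Another of the 3 copies held 52.9% of the 50-base words of Zscan4a, 41.4% of those of Zscan4b and 56.3% of those of Zscan4c. Any other gene held 63.6%, 90.3% and 85.5%, so part of the sharing was with genes outside the sum. The second exons of Zscan4a and Zscan4c, and exon 3 of Zscan4c, held no unique word of either length, while every 50-base word of the first exon of Zscan4c was unique (words within 1 exon). No source used here gives the read length or says whether reads that map to several places were counted.

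The 3 bins without a unique 50-base word, summed, stood at 0.585, 0.882 and 0.568 CPM in wildtype and 4.05 and 4.16 CPM in deleted libraries, a ratio of means of 6.06. They held 28.4% of the counts of the 3 copies. The other 9 bins stood at 2.00, 1.83 and 1.69 against 9.83 and 10.2 CPM, a ratio of 5.44. The 3 first exons, where most 50-base words were unique, had 31, 25 and 17 counts in wildtype and 68 and 99 in deleted libraries, a ratio of CPM means of 4.66. These first exons held only 6.24% of the counts of the 3 copies. In the other bins with unique 50-base words, such words made up 2.42% (last exon of Zscan4b) to 44.5% (last exon of Zscan4a). Reads there can thus be shared too. The difference was present in bins with no, few and mostly unique words, while the exact level of each copy rests on how shared reads were handled.

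Those genes beside the cluster that had rows gave no reads. Of the 10 nearest RefSeq genes on each side, 7 had rows: 6 Vmn1r vomeronasal receptor genes and Nlrp4b, an NLR-family gene. Each had 0 counts in all 5 libraries, which allows up to 3 counts, or 0.0139 to 0.0321 CPM by library, as counting error only. None of the 32 genes annotated between the copies, mostly pseudogenes, had a symbol row.

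Other genes of the 2-cell embryo were counted from 2 lists of 54 genes in all, drawn up with earlier results of these data known. Of these, 29 had rows, 13 were tested, 11 were higher in the deleted cells, none was lower and 2 did not pass (edgeR adjusted p under 0.05), beside 19.0% higher among all tested symbols. The median log2 fold change of the 13 was 1.86, against 0.07 over all tested symbols. For 5 of them the low-count filter was met in the deleted libraries only, so they could be tested only where they were high. Among the 8 others 6 were higher, beside 16.8% of such symbols, and their median log2 fold change was 1.80, against 0.02 over such symbols. Usp17la, Usp17lb and Usp17le, all among these 6, belong to a family of near-identical copies, as do Usp17lc and Usp17ld among the 11. Reads may be shared between such copies, so neither count is one of independent genes. With at least 10 counts in every wildtype library required, 4 were called. This filter leaves fewer of the 13 to test, so the 4 cannot be set against the 11 as lost calls.

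Among regulators, only Dux, the transcription factor gene that switches on the programme and Zscan4, was tested. It had 3, 1 and 7 counts in wildtype and 9 and 20 in deleted libraries, or 0.0324 CPM at most in wildtype and 0.0964 CPM at least in deleted libraries, so the groups did not overlap. Dux is one of the 5 genes that met the count filter in the deleted libraries only. The fitted difference was 2.60 ± 0.58 on the log2 scale (SE; edgeR adjusted p = 0.00703), and the call ended without deleted 2 (1.95; edgeR adjusted p = 0.114). Zfp352, a zinc-finger gene of the 2-cell embryo, had too few counts for a test, at 0, 1 and 4 against 11 and 7.

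Among genes downstream, the Usp17l deubiquitinase genes, also a family of near-identical copies, gave 5 higher of 5 tested, beside 19.0% of tested symbols. Of these, Usp17lc and Usp17ld met the count filter in the deleted libraries only, so they could be tested only where they were high. Usp17la, Usp17lb and Usp17le met it in wildtype too, and 16.8% of such symbols were higher. Usp17lb had 10, 14 and 21 counts in wildtype and 104 and 76 in deleted libraries, and its log2 fold change of 3.23 ± 0.27 (SE) was above the values of the Zscan4 copies. Usp17lc and Usp17le had 2.40 ± 0.33 and 2.05 ± 0.26. Usp17ld had 1.74 ± 0.46 and Usp17la 1.73 ± 0.42, and both calls ended without deleted 1 (0.92 and 1.22; edgeR adjusted p = 0.254 and 0.142).

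The membrane protein gene Tmem92 had a log2 fold change of 2.41 ± 0.34 (SE) and the TD/POZ-domain gene Tdpoz3 one of 2.70 ± 0.56, and both met the count filter in the deleted libraries only. The Tdpoz3 call ended without deleted 1 (edgeR adjusted p = 0.0511). Pramef25, of the Prame family, and Sp110, a nuclear body protein gene, had 1.86 ± 0.30 and 1.86 ± 0.33. The tripartite-motif gene Trim43a had 1.30 ± 0.26, whereas its neighbour in name Trim43b stood at 0.524 ± 0.0767 CPM in wildtype (SD, n = 3) and 0.397 ± 0.138 CPM in deleted cells (SD, n = 2; edgeR adjusted p = 0.265). The homeobox gene Lmx1a had −0.47 ± 0.38 (edgeR adjusted p = 0.364). The Zscan4 copies had 199 to 922 counts for Zscan4c and 47 to 290 for the others, so their fold changes had smaller SEs than those of the other 13 genes, which had SEs of 0.25 to 0.58.

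**Figure D4:**
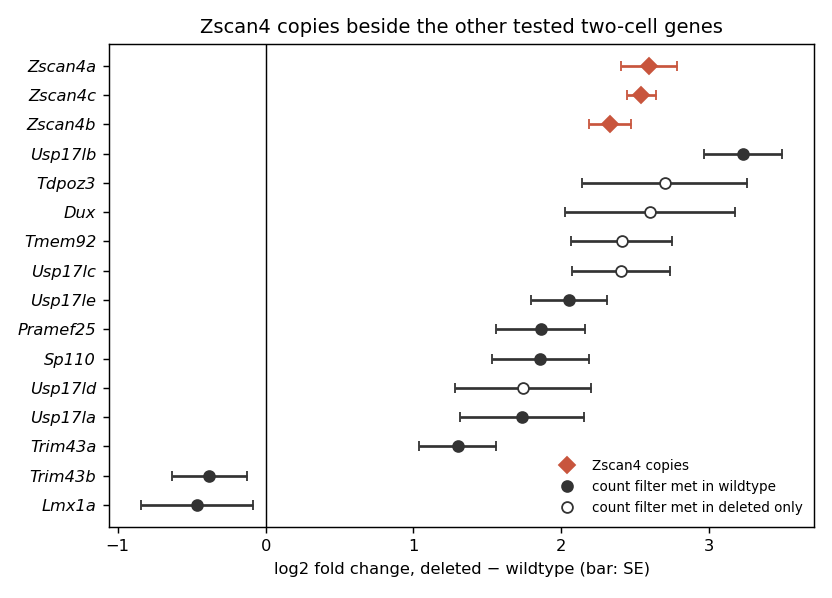
Log2 fold change, deleted minus wildtype, with SE bars, of the Zscan4 copies (diamonds) and the other 13 tested genes of the 2-cell lists (circles; open where the count filter was met in deleted libraries only). The copies lie at 2.33 to 2.59, between Usp17lb at 3.23 and Trim43a at 1.30 among the genes that were higher, and Trim43b and Lmx1a lie below 0.

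No gene of the list of repressors of the 2-cell state, 25 genes among which are Trim28, Kdm1a and Setdb1, had a symbol row. In the telomere and meiotic recombination list, 2 of 23 genes were tested. Tet3, a methylcytosine dioxygenase gene, was lower by a fitted −0.70 ± 0.14 log2 units (SE; edgeR adjusted p = 0.00420). Terc, the telomerase RNA gene, stood at 0.0987 ± 0.0178 CPM in wildtype (SD, n = 3) and 0.150 ± 0.0157 CPM in deleted cells (SD, n = 2), with edgeR adjusted p = 0.184.

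Of 9 tested genes of the wider SCAN-domain family, 2 were higher, 3 lower and 4 did not pass, beside 19.0% and 13.1% of tested symbols, with a median log2 fold change of −0.12. Zscan2 had 0.58 ± 0.14 (SE; edgeR adjusted p = 0.0108; 0.125 without deleted 2). Zkscan7 had −0.47 ± 0.13 (edgeR adjusted p = 0.0223), which rose to 0.144 when deleted 1 and to 0.0708 when deleted 2 was left out. For Zkscan16, at −0.46 ± 0.15, leaving out wildtype 1, wildtype 2 or deleted 1 ended the call (edgeR adjusted p = 0.0508, 0.0912 and 0.241). The other called genes, Zscan5b (0.39 ± 0.13) and Pgbd1 (−0.36 ± 0.12), named after their values were seen, each lost the call when any 1 library other than wildtype 3 was left out (edgeR adjusted p = 0.0864 to 0.199 and 0.0817 to 0.159). The differences of these 5 genes were all under 1 log2 unit, whereas those of the Zscan4 copies were over 2.

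Markers of other cell types stood beside these values as follows. Of 7 tested fibroblast markers, feeder cells of such cultures being fibroblasts, 5 were higher and none lower, beside 19.0% higher among all tested symbols. One of the 5, Col6a1, met the count filter in the deleted libraries only, and of the other 6 tested markers 4 were higher, beside 16.8% of such symbols. The summed level of all 11 markers with rows was 9.18 to 12.4 CPM in wildtype and 13.5 to 13.7 CPM in deleted libraries. Its largest part was Fbn1, at 5.53 ± 1.20 CPM in wildtype (SD, n = 3) and 6.17 ± 0.0624 CPM in deleted cells (SD, n = 2). Fbn1 and Col1a1, named after their values were seen, did not pass. Their log2 fold changes were 0.15 ± 0.17 (SE, edgeR adjusted p = 0.520) and 0.18 ± 0.16 (SE, edgeR adjusted p = 0.390). Lum, Dcn, Postn and Col3a1, abundant in fibroblasts, had 0 to 4 counts in every library. Reads of these genes may lie under assembly IDs, so the low counts do not show that the genes were silent. Col1a2 had 0.92 ± 0.19 (SE; edgeR adjusted p = 0.00489; 0.0551 without deleted 1). Pdgfrb had 0.49 ± 0.12 (edgeR adjusted p = 0.00926; 0.106 without deleted 2) and Col6a1 2.09 ± 0.52 (edgeR adjusted p = 0.0118; 0.1896 without deleted 2). Col5a2 (0.75 ± 0.21) and Col6a2 (0.93 ± 0.30), named after their values were seen, lost the call when any 1 library other than wildtype 3 was left out (edgeR adjusted p = 0.0580 to 0.105 and 0.0842 to 0.196).

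Of 9 tested primitive endoderm markers, 3 were lower, none higher and 6 did not pass, beside 13.1% lower among all tested symbols. Their summed level was 8.45 to 9.49 CPM in wildtype and 5.63 to 6.92 CPM in deleted libraries. The 6, named after their values were seen, had small log2 fold changes. These were −0.02 for Gata4, −0.24 for Gata6, −0.13 for Sox17, −0.07 for Hnf4a, 0.26 for Foxa2 and 0.10 for Dab2. A fall across the whole list is thus not shown. Cubn, an endocytic receptor gene, had −2.07 ± 0.27 (SE), the transcription factor gene Sox7 −0.89 ± 0.16 and the receptor gene Pdgfra −1.02 ± 0.22, the last not called without deleted 1 (edgeR adjusted p = 0.0665). Their part in the Zscan4 difference, and that of the fibroblast markers, was not tested.

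The symbols with a profile most like that of the Zscan4 sum were sought among 3588 others, by the root mean square difference of log2 CPM over the 5 libraries, each gene centred on its own mean. By this measure the copies themselves lay 0.0362 (Zscan4c), 0.149 (Zscan4a) and 0.168 (Zscan4b) from the sum, and the median over all symbols was 1.21. The nearest was Cdh17, a cadherin gene, at 0.119, with 0.193, 0.175 and 0.171 CPM in wildtype and 1.18 and 0.989 CPM in deleted libraries. Msln, the mesothelin gene, followed at 0.132, with 0.338, 0.394 and 0.347 against 1.97 and 1.72 CPM, and Ptprq, a receptor phosphatase gene, at 0.145. Gm4971, Gm5169 and BC080695 came next at 0.204, 0.216 and 0.223. Ptprq and these 3 met the count filter in the deleted libraries only. With 2 groups of libraries this measure finds genes of similar fold change.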

How the data were processed

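Per the labels' protocols, RNA was extracted with Trizol and a Qiagen kit and libraries were made with a NEBNext Ultra kit. The authors deposited whole-number read counts per exon bin for 5 libraries. The submitters' processing notes name STAR and the build mm9. No source used here gives the annotation, strand setting or read length, or says whether a read over several bins counts in each. Nothing says that the libraries are separate cultures, so p-values measure the spread among them, possibly only technical.

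Here, 56 spike-in names were left out and bins were summed per gene. Genes were filtered with filterByExpr (minimum count 10), scaled by TMM and fitted with edgeR's quasi-likelihood test with robust dispersions (R 4.3.3, edgeR 4.0.16, limma 3.58.1), with Benjamini-Hochberg adjustment over all genes. Bins were fitted likewise, and bin use with diffSpliceDGE. Robust dispersions, and the members and lists, were chosen with earlier results of these data known. Named were all members and bins, tested genes of the 2-cell lists, 10 neighbours a side, up to 3 genes by p per other list, and the 6 nearest profiles (log2 CPM, prior count 2). The fits were checked on simulated data with the same dispersion for all genes and no library set apart. That check thus does not cover the departure of wildtype 3 from the other wildtype libraries. Exon lengths and transcripts are of GENCODE vM21, promoters of RefSeq; both are GRCm38, not the authors' build. Alternatives covered scaling, filters, DESeq2 1.42.0, the most counted bin, a replicate block and leaving out each library.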

Additional observations from a re-analysis of the deposited data

How the results depend on the processing

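Over 14 alternatives each, the log2 fold change kept its direction for every copy, at 2.38 to 2.71 for Zscan4a, 2.19 to 2.44 for Zscan4b, 2.46 to 2.60 for Zscan4c and 2.42 to 2.55 for the sum. Leaving out 1 library gave the ends of the ranges of Zscan4a and 2.19 to 2.44 for Zscan4b, whose lowest value, without deleted 2, lay about 1 SE below the reported one. The copies' shares in the sum were also taken from the most counted bin alone, where the Zscan4a difference was −1.72 percentage points. Without 1 library, the last exon's share differed between groups by −11.7 to −6.57 points in Zscan4a, −4.70 to 8.75 in Zscan4b and −2.18 to 3.20 in Zscan4c. Of the 12 bins, 7 met the threshold where at least 10 counts in every library were required, which leaves fewer bins to fit, 8 did without deleted 2, 11 without deleted 1, and 12 without any 1 wildtype library or with a replicate block. These bins belong to copies chosen by this contrast, so their counts are no evidence of stability. The 2-cell count of 11 was 4 with at least 10 counts in every wildtype library, which leaves fewer genes to test, and 8 to 11 without 1 library. The count over the other lists, 14, was 6 to 15 without 1 library, and all genes called, 6453, were 3555 to 8347. With 1 deleted library left out, the spread of the remaining one is taken from the wildtype libraries. The labels number replicates 1 and 2 in both groups, and deviations of equal numbers had correlations of 0.05 and −0.05. Deleted 1 and 2 gave exact opposites with each of wildtype 1 and 2, which gave nearly the same values. The check thus cannot show whether equal numbers are paired. With a replicate block the log2 fold change of the sum was 2.45, and 8200 genes and 11 genes of the 2-cell lists were called. In this fit wildtype 3 is the only library with its number, so it adds nothing to the group difference. The block is thus no check separate from leaving out wildtype 3, where the sum had 2.44 and 8347 genes were called. The fibroblast marker Fbn1 was called with the block (0.35) and without wildtype 3 (0.34), which for this reason are not separate results. It was not called when any other library was left out. An edgeR fit without robust dispersions, added after seeing the data, changed no call count by over 1.5 times. Few counts limit the first exons and Dux.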
